A study of Arabidopsis thaliana with 9 samples.

Results

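Leaves of Arabidopsis thaliana kept under prolonged warming (PW) were compared with control leaves (CK) across every gene that could be tested, to describe how leaf transcription settles after a week of mild warmth. For PW plants the last 7 days before sampling were set to 28 °C in the day and 23 °C in the night, while CK plants stayed at 23 °C and 18 °C. All plants were wild type of the Columbia ecotype (Col-0), were moved among several growth chambers during growth and treatment, and gave leaves of nearly complete rosettes 30 days after sowing. A heat shock group (HS), whose plants received 38 °C for 6 hours in the light, shared these conditions. Below, its levels serve to ask whether a change was particular to PW. Its libraries also entered the count filter and the shared estimate of spread behind the PW vs CK tests. With the PW and CK libraries alone the count of changed genes given below, 3112, was 3492, and without HS3 it was 3656. Each treatment gave 3 libraries (PW1 to PW3, HS1 to HS3 and CK1 to CK3) from biological replicates, so that the p-values measure the spread among these libraries. Of 33602 gene identifiers in the count table, 18952 had at least 10 counts in at least 3 of the 9 libraries and were tested, and 9126 had no count in any library.

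Warmth below the range of heat stress acts on plant growth through a small set of regulators. The red-light receptor phytochrome B and the evening complex of the circadian clock (ELF3, ELF4 and LUX) lose activity, the growth-promoting factors PIF4, PIF5 and PIF7 gain it, and auxin synthesis and cell elongation follow. The clock itself is a loop in which morning factors (CCA1, LHY) and evening factors (TOC1, the evening complex) repress each other, and it times photosynthesis, cold tolerance and defence over the day. Salicylic acid defence is known to weaken in warm plants, whereas heat shock proteins, chaperones that hold unfolded proteins, respond to damaging heat.

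The PW libraries held 11966328 to 12781806 counts, the HS libraries 11660970 to 13734801 and the CK libraries 13772506 to 17768334. The 100 most abundant genes of a library took 32.9% to 38.9% of its counts in PW, 25.2% to 30.7% in HS and 21.7% to 24.9% in CK, and the normalization factors (TMM, which scale each library so that most genes match between libraries) ran from 0.8115 to 0.9635 in PW, 0.9384 to 1.153 in HS and 1.097 to 1.218 in CK. Replicates correlated across genes with Pearson's r of 0.935 to 0.965 in PW and 0.982 to 0.988 in CK, so that PW libraries were the more scattered. HS3 stood apart from HS1 and HS2 (r = 0.912 to each). Among cell type markers, all 5 of mesophyll were abundant, and none of 4 seed storage markers and 2 of 7 root markers passed the count filter. Of 9 meristem and flower markers 7 passed it. They summed to 3.082 to 34.08 CPM in PW, 1.65 to 39.84 CPM in HS and 15.33 to 52.75 CPM in CK libraries. The part of the rosette behind these values was not tested. The hour of day at which each group was sampled is not given in the sources used here.

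Between PW and CK leaves 3112 genes differed (16.4% of those tested), 1671 up-regulated (8.82%) and 1441 down-regulated (7.6%) in PW vs CK. A differentially expressed gene (DEG) here passed edgeR's quasi-likelihood test at a Benjamini-Hochberg adjusted p under 0.05 and differed by at least 2-fold. In bulk leaves fewer cells that express a gene and less RNA per cell cannot be told apart. Most changes were moderate: the median log2 fold change was 1.5 among up-regulated and -1.59 among down-regulated DEGs, 409 genes rose and 506 fell by at least 4-fold, and 40 rose and 76 fell by at least 16-fold. Over all tested genes the median was -0.0396, with the middle 50% between -0.52 and 0.458 and the middle 90% between -1.66 and 1.47. In 1659 of the up-regulated DEGs every PW library lay above every CK library, and in 1439 of the down-regulated ones every PW library lay below; of all tested genes 25.3% were separated in the first way and 27.9% in the second. The 2-fold threshold matters to the count, since 5884 genes (3112 higher, 2772 lower) passed the adjusted p alone and 843 (472 higher, 371 lower) passed a test against a 2-fold change (glmTreat). Up-regulation leaned to abundant genes: among the 3791 genes with the highest mean level, from 48.6 CPM (counts scaled to a common library size) upward, 15.8% rose and 6.91% fell, and among the 3791 with the lowest, under 3.85 CPM, 6.04% rose and 9.6% fell. The mean was taken over the PW and CK libraries, so a rise in PW itself lifts a gene in this ranking and a fall lowers it. The size of that part was not tested.

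The balance of rises and falls rests on the scaling. With library size alone, which sets all libraries to the same total, 842 genes rose and 3031 fell (21.7% of DEGs higher, against 53.7% with TMM). The median of all genes moved by -0.413, while no DEG changed its direction. Which scaling lies closer to the amount of RNA per cell was not tested. Changes below are relative to the TMM scaling, and the DEG calls of CAB1, RBCS1A, LHCB5, IAA29, HSP90.1, FAD7, SEN1, PRK, NPQ4, EXPA8, TCH4, CSD2, BZIP9, BZIP24, HSFA3, FAD6, P5CS1, APL1, GAPB, MYB76, IMD1, CCS, PETE1, FRO3, APR2, PIP1A, RD28, PIP2B, SAUR22, AT5G18030 (also a SAUR gene), YUC2, AT2G31790, CYP79F2, GLDP2, TIP2, KAT1 and PP2-A1 were lost under library size alone.

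**Figure D1:**
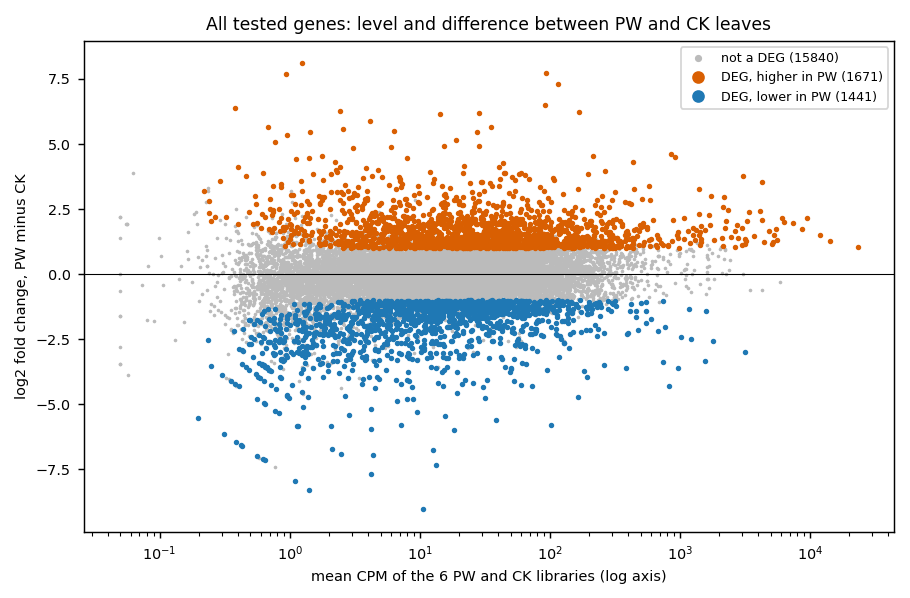
Fitted log2 fold change, PW minus CK, of the 18952 tested genes against their mean level over the 6 PW and CK libraries (CPM, log axis). Orange points are the 1671 DEGs higher in PW, blue points the 1441 DEGs lower in PW and grey points all others; the highest levels, toward the right edge, are held mostly by orange points.

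Considering only genes that reached 100 counts in all libraries of the group where they were high, the 10 largest rises included genes of little known function beside the clock genes described below. AT2G15020 (chr2:6491425-6493512), which encodes an uncharacterized protein, was at 47.3, 309.9 and 200.1 CPM in PW leaves, 193, 132 and 48.1 CPM in HS leaves and 0.324, 1.26 and 1.09 CPM in CK leaves (PW vs CK log2 fold change 7.73, SE 0.94, edgeR adjusted p = 0.000691). AT1G62510, of the lipid-transfer and seed storage albumin superfamily, was at 40.3, 328 and 319 CPM in PW leaves, 1585, 1432 and 431 CPM in HS leaves and 2.08, 1.38 and 0.831 CPM in CK leaves (PW vs CK log2 fold change 7.29, SE 0.96, edgeR adjusted p = 0.00094). PW1 was the lowest PW library in both, yet far above all CK libraries. CIPK20, a protein kinase that works with calcium sensors, was at 124, 252 and 169 CPM in PW leaves, against 1.48, 2.64 and 1.85 CPM in CK leaves (log2 fold change 6.51, SE 0.56, edgeR adjusted p = 0.000212), and AT1G62510 lay lower and CIPK20 higher in PW than in HS (PW minus HS -2.33 and 2.13, edgeR adjusted p = 0.0465 and 0.0088). AT1G13650 (chr1:4680290-4682382), another uncharacterized protein gene, was at 317, 388 and 291 CPM in PW leaves, against 3.52, 4.65 and 4.99 CPM in CK leaves (log2 fold change 6.24, SE 0.22, edgeR adjusted p = 5.44e-06). Its replicates lay close together, and it was also higher in PW than in HS (53.9, 58.8 and 53.8 CPM in HS leaves; PW minus HS 2.58, edgeR adjusted p = 6.6e-05). AT1G76240, of the DUF241 family, was at 31.2, 56.5 and 22.4 CPM in PW leaves, 1.71, 0.907 and 0.521 CPM in HS leaves and 0.787, 0.631 and 1.73 CPM in CK leaves, so that its rise over HS (log2 fold change 5.12, edgeR adjusted p = 0.000394) was about that over CK (5.14, adjusted p = 0.000352). AT2G27420, a cysteine proteinase, rose by 6.17 (adjusted p = 0.00068), AT3G24460, a serine and sphingolipid synthesis family member, by 5.46 (adjusted p = 0.00132), and STH (BBX25), a B-box factor of light signalling, by 4.93 (adjusted p = 0.000218) on the log2 scale.

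The 10 largest falls included 2 clock genes, JMJD5 and COR27. JMJD5 (JMJ30, chr3:7275645-7278420), a Jumonji-domain protein of the evening clock, was at 4.61, 2.6 and 3.61 CPM in PW leaves, against 221, 182 and 201 CPM in CK leaves (log2 fold change -5.79, SE 0.44, edgeR adjusted p = 0.000152). COR27 (chr5:17197641-17199910), a night-time clock regulator named for its induction by cold, was at 1.62, 0.963 and 2.06 CPM in PW leaves, 15.8, 15.5 and 13.5 CPM in HS leaves and 72, 82.9 and 72.8 CPM in CK leaves (PW vs CK log2 fold change -5.61, SE 0.23, edgeR adjusted p = 1.2e-05), and it was lower in PW than in HS as well (PW minus HS -3.26, edgeR adjusted p = 6.6e-05). In both genes the 3 PW libraries sat far below the 3 CK libraries. AT5G37940, a zinc-binding dehydrogenase, held 8 counts over the PW libraries and 733 over the CK libraries, a 53.3-fold difference in CPM (95% counting interval 26.9 to 124) and an edgeR adjusted p of 0.00848.

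A further 5 of these falls, all with larger fitted changes than JMJD5 and COR27, split the HS replicates. AT4G01985 (1 count in PW and 465 in CK, CK over PW 270-fold, 95% counting interval 48.3 to 10700), AT3G05727 (2 and 488 counts, 142-fold, 39.1 to 1180) and AT4G22505, of the lipid-transfer family (1.45, 0.0963 and 0 CPM in PW leaves, against 50.3, 25.6 and 32.2 CPM in CK leaves), were near 0 in HS1 and HS2 but at 0, 0 and 36.6 CPM in the last gene's HS libraries, where HS3 reached the CK level. AT1G52930, an rRNA-processing Brix-domain gene (7 and 1370 counts, 114-fold, 55.1 to 284), and FIO1, an RNA methyltransferase (4 and 455 counts, 66.2-fold, 25.7 to 244), were high in HS2 alone among HS libraries. The HS replicates of these 5 genes thus disagreed among themselves. AT3G05727 was no longer a DEG without PW1, PW2, PW3, CK1, CK2 or CK3 (adjusted p up to 0.113). AT4G22505 was no longer a DEG without PW1, PW2, PW3, CK1, CK2 or CK3 (adjusted p up to 0.133), or with the replicate number as a block (adjusted p = 0.0501). AT1G52930 was no longer a DEG without PW1, PW2, PW3 or CK3 (adjusted p up to 0.0714).

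Among the 10 most abundant genes, chosen by mean CPM over the PW and CK libraries, 9 were of photosynthesis and up-regulated. Per kilobase of exon, CAB1, an antenna protein of photosystem II, averaged 25500 RPKM (counts scaled by exon length and library size) in PW and 12280 in CK, PSBR, a subunit of photosystem II, 17220 in PW and 5113 in CK, and RBCS1A, a small subunit of Rubisco, 15900 in PW and 6662 in CK. LHB1B2, RBCS3B, LHCA4, LHCA1, LHCB5 and RCA were up-regulated as well, with log2 fold changes of 1.5, 2.15, 1.99, 2.14, 1.33 and 1.97. CAT3, 1 of the catalases that remove peroxide, was the exception at 1558 RPKM in PW and 1916 RPKM in CK (log2 fold change -0.3, edgeR adjusted p = 0.5). Reads of the near-identical CAB1, CAB2 and CAB3 and of RBCS1B, RBCS2B and RBCS3B may have been split by the counting, so values of single copies are uncertain. CAB1 was no longer a DEG without PW2, PW3, CK1 or CK3 (adjusted p up to 0.0607). LHB1B2 was no longer a DEG without CK1 or CK3 (adjusted p up to 0.0675).

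Gene lists drawn from known pathways moved apart. The plot of gene lists ranks them by median.

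**Figure D2:**
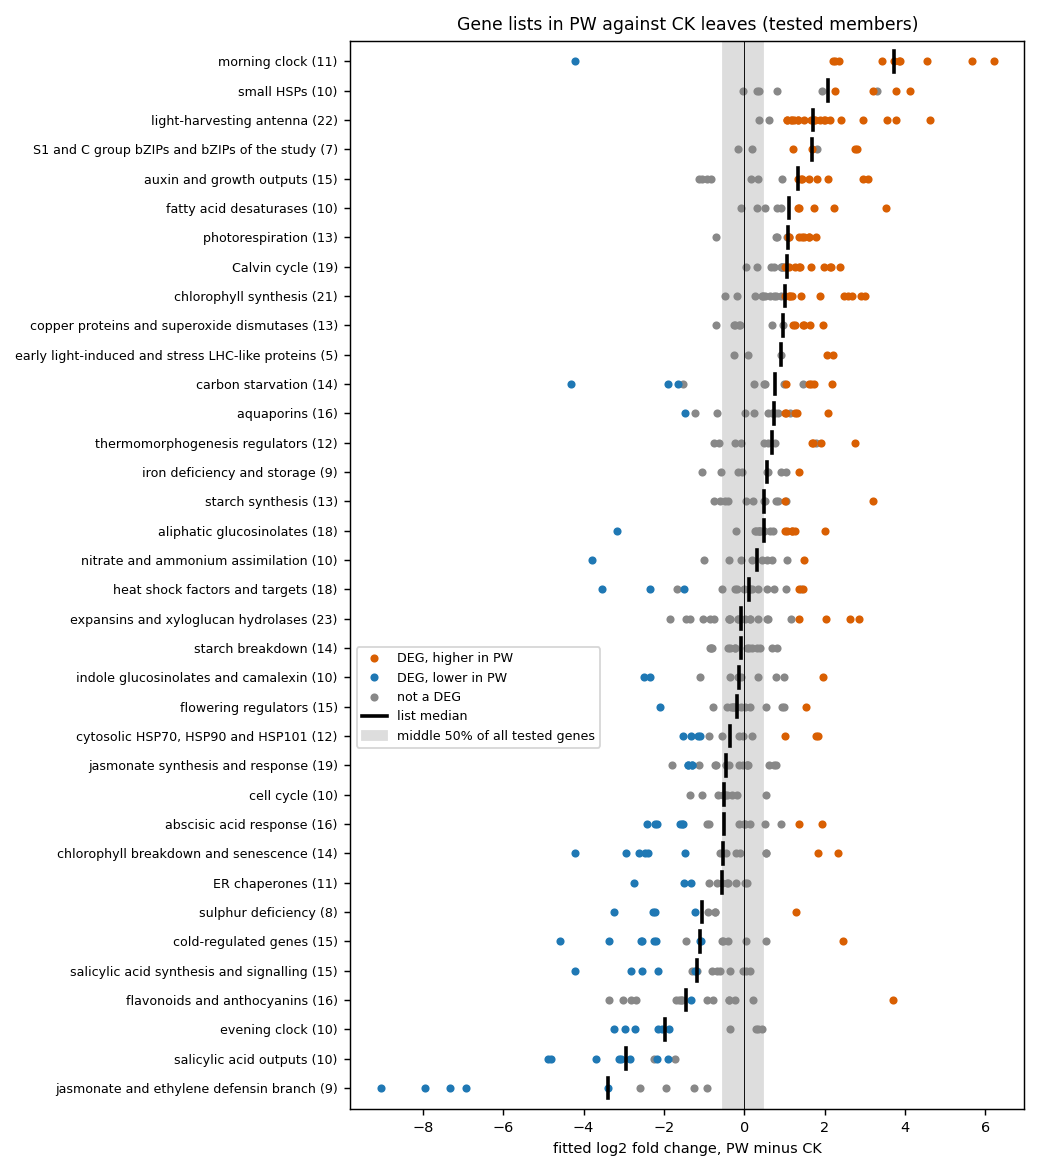
Fitted log2 fold change, PW minus CK, of each tested member of the gene lists (number tested in brackets), ordered by list median (black bar); orange marks DEGs higher in PW, blue DEGs lower in PW, grey other members, and the grey band holds the middle 50% of all tested genes (-0.52 to 0.458). The morning clock list has the highest median (3.72) and the jasmonate and ethylene defensin list the lowest (-3.4).

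Of 11 morning genes 10 were up-regulated and 1, RVE2, was down-regulated, with a list median of 3.72 (all tested genes 8.82% up and 7.6% down, median -0.0396). HS leaves moved the same way. Per library, the list's median log2 difference from the CK mean was 2.57, 3.25 and 2.89 in PW and 2.43, 2.27 and 2.04 in HS. These medians were taken on CPM with a small offset added. CCA1 (chr2:19245591-19248915), the MYB factor that opens the morning phase, was at 27, 106 and 76.9 CPM in PW leaves, against 1.48, 1.26 and 1.34 CPM in CK leaves (log2 fold change 5.66, SE 0.5, edgeR adjusted p = 0.000212). PRR9 (chr2:19232607-19235179), the first of the pseudo-response regulators to peak after dawn, was at 33, 78.9 and 58.1 CPM in PW leaves, against 0.648, 0.631 and 1.02 CPM in CK leaves (log2 fold change 6.21, SE 0.43, edgeR adjusted p = 0.000128). In both genes PW1 was the lowest of the PW libraries yet stood well above all CK libraries. Neither rise was particular to PW. In HS leaves CCA1 was at 159.8, 145.6 and 125.5 CPM and PRR9 at 44.55, 42.24 and 26.14 CPM. PW minus HS was -1.04 for CCA1 and 0.589 for PRR9 (edgeR adjusted p = 0.0771 and 0.198). LHY, the partner of CCA1, rose by 3.85 (adjusted p = 0.000374), AT3G54500 (LNK2), a co-activator of afternoon genes, by 4.55 (adjusted p = 0.000128) and EPR1 (RVE7) by 3.88 (adjusted p = 6.15e-05) on the log2 scale. RVE2 was at 2.31, 1.64 and 2.58 CPM in PW leaves, against 31.8, 42.2 and 47.3 CPM in CK leaves (log2 fold change -4.21, adjusted p = 6.08e-05), the reverse of its REVEILLE relatives.

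Of 10 evening genes 6 were down-regulated and none up-regulated (median -1.96). HS leaves again moved the same way. Per library, the list's median log2 difference from the CK mean was -1.86, -2.04 and -1.88 in PW and -1.59, -1.4 and -0.895 in HS. TOC1 (chr5:24674963-24678550), the evening repressor of CCA1, was at 46.5, 48.5 and 49 CPM in PW leaves, against 169, 185 and 173 CPM in CK leaves (log2 fold change -1.88, SE 0.2, edgeR adjusted p = 0.000426). ELF4 (chr2:16734294-16734953), of the evening complex, was at 12, 24.2 and 19 CPM in PW leaves, against 124, 162 and 141 CPM in CK leaves (log2 fold change -2.96, SE 0.31, edgeR adjusted p = 0.000368), and PCL1 (LUX), its DNA-binding partner, at 24.7, 20.5 and 21.8 CPM in PW leaves, against 98.2, 104 and 92.8 CPM in CK leaves (log2 fold change -2.14, adjusted p = 0.000128). The groups did not overlap in any of these genes. BOA, FKF1 and PRR3 fell (log2 fold changes -3.24, -2.73 and -2.06). GI, a partner of FKF1 in flowering time, was at 77, 126 and 117 CPM in PW leaves, against 125, 149 and 133 CPM in CK leaves, with overlapping groups (log2 fold change -0.35, adjusted p = 0.213). Each of these calls held on leaving out any 1 library. Levels of clock genes depend on the hour of sampling, which is not given for either group. A difference in that hour, a shift of clock phase and a change of level cannot be told apart here. The same limit holds for the genes below that the clock times.

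**Figure D3:**
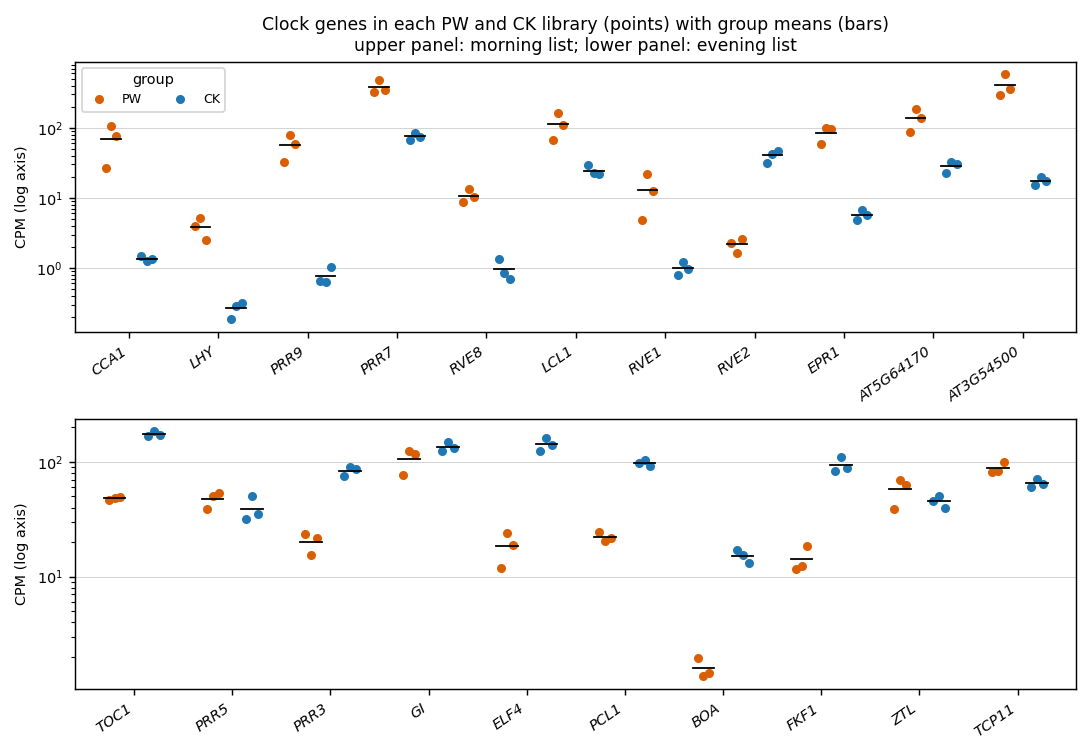
Level of the 11 morning (upper) and 10 evening (lower) clock genes in each PW (orange) and CK (blue) library (CPM, log axis), with group means as black bars. In 10 morning genes all PW points lie above all CK points, RVE2 runs the other way, and 6 evening genes, TOC1, PRR3, ELF4, PCL1, BOA and FKF1, have all PW points below all CK points.

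Promoters of part of these genes carry short motifs bound by transcription factors, and examples are printed to show them in place. The G-box CACGTG, bound by bHLH and bZIP factors such as the PIFs, occurred in the 250 bases before the start of 6 of 11 morning genes (54.5%). It occurred in 7.47% of 18814 tested genes and 8.81% of up-regulated DEGs. The evening element AAATATCT, bound by CCA1 and its relatives, occurred in 6 of 10 evening genes (60%), against 5.04% of tested genes and 6.69% of down-regulated DEGs. Motifs were searched on both strands. The sequences are from the RefSeq annotation of assembly TAIR10.1, read 5′ to 3′ toward the gene, with the motif in capitals: CCA1 at chr2:19245341-19245590 (plus strand) and PRR9 at chr2:19232357-19232606 (plus) with the G-box, and TOC1 at chr5:24674713-24674962 (plus) with the evening element.
CCA1: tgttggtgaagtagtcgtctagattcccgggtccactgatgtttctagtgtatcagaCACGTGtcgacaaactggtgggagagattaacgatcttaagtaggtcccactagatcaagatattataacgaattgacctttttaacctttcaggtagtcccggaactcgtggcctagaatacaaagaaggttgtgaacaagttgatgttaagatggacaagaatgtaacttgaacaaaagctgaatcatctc
PRR9: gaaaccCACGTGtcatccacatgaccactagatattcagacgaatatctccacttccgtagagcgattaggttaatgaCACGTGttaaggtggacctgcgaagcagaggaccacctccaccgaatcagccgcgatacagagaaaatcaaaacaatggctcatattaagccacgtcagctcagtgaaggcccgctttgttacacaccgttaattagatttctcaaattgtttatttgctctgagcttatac
TOC1: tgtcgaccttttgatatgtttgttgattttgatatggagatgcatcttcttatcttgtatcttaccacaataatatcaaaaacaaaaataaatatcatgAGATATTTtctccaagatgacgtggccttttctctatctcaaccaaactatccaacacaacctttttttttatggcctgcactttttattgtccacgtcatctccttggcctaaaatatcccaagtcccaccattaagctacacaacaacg

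Regulators of thermomorphogenesis, the growth response to warmth, rose in part. Of 12 tested members 4 were up-regulated and none down-regulated (median 0.679). As a list they rose in HS leaves too. The list's median log2 difference from the CK mean was 0.479, 0.802 and 0.619 in the PW libraries and 0.527, 0.485 and 0.621 in HS. PIF4 (chr2:17886101-17889087), the bHLH factor at the centre of the response, was at 268, 438 and 286 CPM in PW leaves, against 103, 114 and 90.6 CPM in CK leaves (log2 fold change 1.69, SE 0.22, edgeR adjusted p = 0.000902). PIL6 (PIF5) was at 146, 249 and 189 CPM in PW leaves, against 55.5, 54.8 and 44.7 CPM in CK leaves (log2 fold change 1.91, SE 0.23, edgeR adjusted p = 0.00071) and PIF7 rose by 1.71 (adjusted p = 0.000734). All PW libraries exceeded all CK libraries in the 3 genes, with PW2 the highest. BBX18, a B-box factor of the same response, rose by 2.75 (adjusted p = 0.000908), and less than in HS leaves (PW minus HS -1.2, edgeR adjusted p = 0.0264). ELF3, which holds PIF4 back in the evening, was at 46.5, 44 and 42.5 CPM in PW leaves, against 75.5, 75.4 and 74.7 CPM in CK leaves, a difference that passed the adjusted p (0.00152) but not the 2-fold threshold (log2 fold change -0.76), and HY5, a light factor opposed to PIF4, had 0.76 (adjusted p = 0.0164).

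Auxin and growth outputs followed with 8 of 15 tested members up-regulated and none down-regulated (median 1.33). PRE1, a small bHLH protein that frees growth factors from their inhibitors, was at 19.1, 42.4 and 23.59 CPM in PW leaves, against 1.94, 5.17 and 3.96 CPM in CK leaves (log2 fold change 2.95, SE 0.48, edgeR adjusted p = 0.00227). SAUR20, of the small auxin up RNA family that loosens walls, was at 19.6, 36.9 and 27 CPM in PW leaves, against 2.22, 4.59 and 3.13 CPM in CK leaves (log2 fold change 3.07, SE 0.36, edgeR adjusted p = 0.000634). Both groups of libraries stood apart in each gene, and both genes were higher in PW than in HS (PW minus HS 3.79 for PRE1, edgeR adjusted p = 0.00113, and 2.4 for SAUR20, adjusted p = 0.00175). IAA29, a warmth- and shade-induced auxin repressor, was at 11.3, 40.7 and 18 CPM in PW leaves, against 3.98, 7.06 and 5.37 CPM in CK leaves (log2 fold change 2.09, adjusted p = 0.0218). SAUR22 rose by 1.82 (adjusted p = 0.0412), with reads of SAUR20 and SAUR22 hard to assign because these copies and their neighbours are nearly identical. PIL1, a shade marker, was at 2.05, 2.41 and 0.515 CPM in PW leaves and 3.47, 5.4 and 2.17 CPM in CK leaves (adjusted p = 0.413). The count of 8 fell to 5 without PW2, to 4 without CK1, to 5 without CK2 and to 4 without CK3. IAA29 was no longer a DEG without PW2, CK1, CK2 or CK3 (adjusted p up to 0.0885). SAUR22 was no longer a DEG without PW2, PW3, CK1, CK2 or CK3 (adjusted p up to 0.141).

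Wall enzymes did not move as a group, with 4 of 23 expansins and xyloglucan hydrolases up-regulated, none down-regulated and a median of -0.0708. EXPA1, a leaf expansin, was at 300.2, 471 and 237 CPM in PW leaves, against 59.5, 105 and 81.9 CPM in CK leaves (log2 fold change 2.03, SE 0.33, edgeR adjusted p = 0.00228) and was lower in HS leaves (27.7, 18.23 and 32.5 CPM; PW minus HS 3.68, edgeR adjusted p = 0.00025). XTH31 rose by 2.62 (adjusted p = 0.0052), EXPA8 by 2.85 (adjusted p = 0.0318) and TCH4, a touch-induced xyloglucan enzyme, by 1.37 (adjusted p = 0.0431). The 4 DEGs became 2 on leaving out PW2, CK2 or CK3. EXPA8 was no longer a DEG without PW2, CK1, CK2 or CK3 (adjusted p up to 0.11). TCH4 was no longer a DEG without PW1, PW2, PW3, CK2, CK3 or HS2 (adjusted p up to 0.146), or with the replicate number as a block (adjusted p = 0.0622).

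Genes of chlorophyll synthesis were up-regulated in 11 of 21 cases, with none down-regulated (median 1.01). HEMA1 (chr1:21623700-21626402), glutamyl-tRNA reductase at the entry of the pathway, was at 832, 997 and 899.8 CPM in PW leaves, against 117, 120.2 and 129 CPM in CK leaves (log2 fold change 2.9, SE 0.24, edgeR adjusted p = 0.00017). CRD1, the cyclase that closes the last ring of the pigment, was at 2404, 3250 and 3637 CPM in PW leaves, against 323, 428 and 398 CPM in CK leaves (log2 fold change 3.02, SE 0.26, edgeR adjusted p = 0.000212). PW and CK libraries were far apart in both, and HEMA1 was higher in PW than in HS as well (158, 196 and 284 CPM in HS; PW minus HS 2.1, edgeR adjusted p = 0.000473). GUN4, which assists magnesium chelatase, rose by 2.68 (adjusted p = 0.000164), its subunit gene GUN5 by 1.87 (adjusted p = 0.00488), CH1 (CAO), which makes chlorophyll b, by 2.48 (adjusted p = 0.000282), and GLK2, a factor that drives chloroplast development, by 2.58 (adjusted p = 0.000593). PORB, a light-dependent reductase, had 0.91 (adjusted p = 0.0405), short of 2-fold.

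In the light-harvesting list 20 of 22 members were up-regulated and none down-regulated (median 1.7), led by LHCB2.3 at 1008, 1845 and 2067 CPM in PW leaves, against 48, 80 and 70.1 CPM in CK leaves (log2 fold change 4.63, SE 0.45, edgeR adjusted p = 0.000302), LHCB2.1 (3.79, adjusted p = 0.000368) and CAB2 (3.55, adjusted p = 0.000164). LHCB2.3 was higher in PW than in HS (PW minus HS 2.45, edgeR adjusted p = 0.00311). As a list, the antenna rose in HS too. Its median log2 difference from the CK mean was 1.04, 1.64 and 2.01 in PW and 1.28, 1.34 and 0.684 in HS. NPQ4 (PsbS), which dissipates excess light as heat, rose by 1.2 (adjusted p = 0.0238). The one-helix proteins OHP and OHP2, which protect pigment-binding subunits during assembly, rose by 2.05 (adjusted p = 0.000923) and 2.21 (adjusted p = 0.00176), while ELIP1, an early light-induced protein, was at 0.854, 1.35 and 1.03 CPM in PW leaves, 54.2, 42.5 and 17.5 CPM in HS leaves and 0.509, 0.918 and 0.256 CPM in CK leaves. NPQ4 was no longer a DEG without PW3, CK1, CK2 or CK3 (adjusted p up to 0.0881), or with the replicate number as a block (adjusted p = 0.0526).

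Of 19 Calvin cycle genes 11 were up-regulated and none down-regulated (median 1.07). This list's median log2 difference from the CK mean was 0.847, 1.08 and 1.26 in the PW libraries and 0.856, 0.812 and -0.0675 in HS. RCA, the activase that reopens Rubisco and is itself sensitive to heat, was at 7356, 14110 and 13960 CPM in PW leaves, against 2442, 3488 and 3101 CPM in CK leaves (log2 fold change 1.97, SE 0.38, edgeR adjusted p = 0.00517). RBCS2B rose by 2.39 (adjusted p = 0.000336), FBA1, a plastid aldolase, by 2.15 (adjusted p = 0.00447) and PRK, phosphoribulokinase, by 1.37 (adjusted p = 0.0135), while SBPASE had 0.94 (adjusted p = 0.0467), under 2-fold. The count was 7 without CK1. PRK was no longer a DEG without CK1 (adjusted p = 0.0572).

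Photorespiration, which recovers carbon from the oxygenation reaction of Rubisco and runs faster in warm leaves, had 8 of 13 genes up-regulated and none down-regulated (median 1.1). Its median log2 difference from the CK mean was 0.674, 1.54 and 1.53 in the PW libraries and 1.27, 1.05 and 0.129 in HS. GGT1, a peroxisomal aminotransferase, was at 1784, 4688 and 3894 CPM in PW leaves, against 908, 1086 and 1035 CPM in CK leaves (log2 fold change 1.77, SE 0.38, edgeR adjusted p = 0.0077), and GOX1, glycolate oxidase, rose by 1.62 (adjusted p = 0.00865), HPR, hydroxypyruvate reductase, by 1.61 (adjusted p = 0.00819), AT1G80380 (glycerate kinase) by 1.49 (adjusted p = 0.00307) and SHM1, the mitochondrial serine hydroxymethyltransferase, by 1.43 (adjusted p = 0.0283). In GGT1 the PW libraries were scattered but all above the CK libraries. The 8 DEGs became 4 without PW2, CK1 or CK3 and 5 without PW3 or CK2. SHM1 was no longer a DEG without PW2, PW3, CK1, CK2 or CK3 (adjusted p up to 0.1).

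Fatty acid desaturases, which set how fluid membranes are, were up-regulated in 5 of 10 cases with none down-regulated (median 1.12). FADA (FAD4), which acts on plastid phosphatidylglycerol, was at 26.5, 77.6 and 59.2 CPM in PW leaves, against 3.93, 5.28 and 4.99 CPM in CK leaves (log2 fold change 3.52, SE 0.46, edgeR adjusted p = 0.000901). FAD8 (chr5:1664040-1666531), the plastid omega-3 desaturase known as the cold-induced isoform, was at 85.7, 145 and 106 CPM in PW leaves, against 24.6, 33.1 and 42.9 CPM in CK leaves (log2 fold change 1.75, SE 0.24, edgeR adjusted p = 0.00113). It was higher in PW than in HS, whose leaves held 16.8, 17.2 and 16.5 CPM (PW minus HS 2.74, edgeR adjusted p = 0.000216). FAD5 rose by 2.24 (adjusted p = 0.000243), FAD7, the isoform of FAD8, by 1.37 (adjusted p = 0.00329) and FAD6 by 1.34 (adjusted p = 0.00206), while FAD2 of the endoplasmic reticulum had 0.91 (adjusted p = 0.0616). All calls but those lost under library size alone were kept in every alternative run.

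Cold-regulated genes went the other way. Of 15 members 8 were down-regulated and 1, CBF2, was up-regulated (median -1.1). LTI78 (RD29A, chr5:21240717-21243644), a classic target of the CBF cold factors and of abscisic acid, was at 57, 181 and 157 CPM in PW leaves, against 936, 1682 and 1453 CPM in CK leaves (log2 fold change -3.36, SE 0.44, edgeR adjusted p = 0.000901). COR15A (chr2:17710441-17712330), which stabilizes chloroplast membranes in the cold, was at 146, 287 and 292 CPM in PW leaves, against 703, 1330 and 1291 CPM in CK leaves (log2 fold change -2.2, SE 0.52, edgeR adjusted p = 0.0124). The groups did not overlap in either gene, and PW1 and CK1 were the lowest of their groups in both. KIN2 (COR6.6) was at 384, 593 and 602 CPM in PW leaves, against 2768, 3550 and 2952 CPM in CK leaves (log2 fold change -2.55, adjusted p = 0.000698) and its near-identical neighbour KIN1 at 2.48, 0.963 and 1.13 CPM in PW leaves, against 27.7, 38.5 and 46.3 CPM in CK leaves (log2 fold change -4.59, adjusted p = 0.000507), with reads of the copies hard to assign. LTI30, a dehydrin, fell (log2 fold change -2.57, adjusted p = 0.000489) and COR15B (-2.26, adjusted p = 0.00481), and LTI78, KIN1 and KIN2 were also lower in PW than in HS (PW minus HS -2.08, -5.33 and -1.5, edgeR adjusted p = 0.00698, 0.000284 and 0.00698). CBF2, one of the factors upstream, was at 18.5, 30.7 and 14.2 CPM in PW leaves, against 6.52, 3.04 and 1.79 CPM in CK leaves (log2 fold change 2.46, SE 0.7, edgeR adjusted p = 0.0261), and CBF1 at 4.36, 9.15 and 2.37 CPM in PW leaves and 9.9, 7 and 4.16 CPM in CK leaves (adjusted p = 0.681). CBF2 was no longer a DEG without PW2, CK2 or CK3 (adjusted p up to 0.0921).

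The CRT core CCGAC, bound by CBF factors, was found within 250 bases of the start of 6 of 15 cold-regulated genes (40%), against 13.2% of tested genes, and the evening element in 5 of them (33.3%). LTI78 holds 3 CRT cores and COR15A 2, and they are printed, motif in capitals, because these are the genes whose levels are given above. The windows are those of LTI78 at chr5:21240467-21240716 (plus) and COR15A at chr2:17712331-17712580 (minus).
LTI78: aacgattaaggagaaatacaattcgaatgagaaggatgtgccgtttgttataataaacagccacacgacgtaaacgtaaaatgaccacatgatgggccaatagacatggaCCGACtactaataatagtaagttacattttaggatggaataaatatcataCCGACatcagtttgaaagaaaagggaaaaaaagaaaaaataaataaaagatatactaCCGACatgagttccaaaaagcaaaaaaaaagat
COR15A: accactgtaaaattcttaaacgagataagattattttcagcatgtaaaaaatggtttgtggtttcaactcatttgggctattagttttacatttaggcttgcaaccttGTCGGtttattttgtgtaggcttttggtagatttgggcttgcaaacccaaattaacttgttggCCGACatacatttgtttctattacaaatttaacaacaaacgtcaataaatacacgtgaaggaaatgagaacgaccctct

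Most salicylic acid output genes were lower in PW. In the list of salicylic acid outputs 8 of 10 genes were down-regulated and none up-regulated (median -2.95, and -4.53 without PW1). The fall was not particular to PW. The list summed to 263.5 to 684.4 CPM in the PW libraries, 82.74 to 94.69 CPM in HS and 1698 to 1983 CPM in CK. PR5 (chr1:28177670-28179022), a thaumatin-like antimicrobial protein, was at 9.91, 1.35 and 4.64 CPM in PW leaves, against 55.2, 56.2 and 28.2 CPM in CK leaves (log2 fold change -3.12, SE 0.6, edgeR adjusted p = 0.00489). BG3, a glucanase, was at 0.769, 0.289 and 0.206 CPM in PW leaves, against 9.86, 16 and 13.4 CPM in CK leaves (log2 fold change -4.89, SE 0.5, edgeR adjusted p = 0.000341). PW and CK libraries did not overlap in either gene, and PW1 was the highest PW library in both. PNP-A, a secreted natriuretic peptide-like protein, fell (log2 fold change -3.69, adjusted p = 0.00313) and NIMIN1, a partner of the receptor NPR1, (-3.06, adjusted p = 0.00756) on the log2 scale. PR1, the standard marker of the pathway, was at 1.54, 0 and 0 CPM in PW leaves, against 30.9, 12.7 and 2.88 CPM in CK leaves (log2 fold change -4.81, adjusted p = 0.0318) and BGL2 (PR2) at 44.4, 1.73 and 7.73 CPM in PW leaves, against 159, 115 and 112 CPM in CK leaves (log2 fold change -2.83, adjusted p = 0.0312), both with PW1 far above PW2 and PW3. The count of 8 became 5 without PW3 or CK3 and 4 without CK1 or CK2. PR1 was no longer a DEG without PW2, PW3, CK1 or CK2 (adjusted p up to 0.117). BGL2 was no longer a DEG without PW3, CK1, CK2 or CK3 (adjusted p up to 0.102).

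Upstream of these, 6 of 15 tested genes of salicylic acid synthesis and signalling were down-regulated and none up-regulated (median -1.17). Per library, the list's median log2 difference from the CK mean was -0.929, -0.969 and -1.3 in PW and -2.04, -2.23 and -1.98 in HS. SARD1, a calmodulin-binding-like factor that switches on salicylic acid synthesis, was at 4.1, 1.73 and 2.16 CPM in PW leaves, against 20.5, 18.5 and 18.3 CPM in CK leaves (log2 fold change -2.83, SE 0.28, edgeR adjusted p = 0.000336). EDS1, the hub of receptor-triggered immunity, was at 21.4, 17.9 and 14.8 CPM in PW leaves, against 43.5, 43.1 and 39.1 CPM in CK leaves (log2 fold change -1.21, SE 0.16, edgeR adjusted p = 0.00087). The groups stood apart in both. EDS5, the transporter that exports the salicylic acid precursor from plastids, fell (log2 fold change -2.56, adjusted p = 0.00124), CBP60G, the partner of SARD1, (-2.15, adjusted p = 0.00732), WRKY38 (-4.22, adjusted p = 0.0123) and WRKY70 (-1.21, adjusted p = 0.00335). EDS16 (ICS1), the first enzyme of the main synthesis route, was at 9.14, 12.6 and 11.9 CPM in PW leaves and 11.8, 10.8 and 7.8 CPM in CK leaves, with overlapping groups (adjusted p = 0.649).

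The jasmonate and ethylene branch that ends in defensins had 5 of 9 tested genes down-regulated, none up-regulated and a median of -3.4, or -2.94 with genes under the counting floor set to their bound, about the median of the salicylic acid outputs (-2.95). Without PW1 the fitted median was -6.4. Summed over the list, levels were 8.765 to 63.3 CPM in PW, 8.167 to 68.59 CPM in HS and 96.89 to 179 CPM in CK libraries. PDF1.2 (chr5:17906968-17907638), the standard defensin marker, was at 0.0854, 0 and 0.412 CPM in PW leaves, against 46.6, 20.3 and 13 CPM in CK leaves (5 and 1563 counts, CK over PW 182-fold, 95% counting interval 77.7 to 561; edgeR adjusted p = 0.00122). PDF1.2c held 1 count in PW and 1292 in CK (751-fold, 135 to 29700, adjusted p = 0.00205) and PDF1.3 1 and 283 counts (165-fold, 29.3 to 6520, adjusted p = 0.00126). PDF1.2b had 0 counts in every PW library and 2.64, 2.58 and 1.34 CPM in CK leaves, at least 7.68-fold lower in PW by a floor of 3 counts per library (adjusted p = 0.00266). In each defensin CK1 was the highest CK library and all PW libraries were at or near 0. PDF1.2, PDF1.2b and PDF1.2c are nearly identical, so their reads may be shared. ORA59, the factor that joins jasmonate and ethylene signals, had 10 counts in PW and 186 in CK (10.8-fold, 5.75 to 22.9, adjusted p = 0.026). The 5 DEGs became 2 without CK1, CK2 or CK3. ORA59 was no longer a DEG without PW2, PW3, CK1, CK2 or CK3 (adjusted p up to 0.0881).

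The GCC-box GCCGCC, bound by ethylene response factors such as ORA59, was present within 250 bases of the start of 3 of 9 genes of this list (33.3%), against 1.97% of tested genes. That of PDF1.2, at chr5:17907639-17907888 (minus), is shown in capitals because the gene had the most counts among these defensins.
PDF1.2: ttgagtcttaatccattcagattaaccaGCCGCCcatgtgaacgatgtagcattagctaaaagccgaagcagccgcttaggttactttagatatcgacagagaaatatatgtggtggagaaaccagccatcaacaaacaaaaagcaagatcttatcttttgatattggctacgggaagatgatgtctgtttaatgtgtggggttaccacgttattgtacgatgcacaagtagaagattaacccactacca

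Jasmonate synthesis and response outside that branch had 4 of 19 tested genes down-regulated, none up-regulated and a median of -0.442, and -0.228 without PW2. The called share was 21.1%, beside 16.4% of all tested genes. LOX2, the lipoxygenase of the wound response, was at 609, 991 and 1018 CPM in PW leaves, against 1855, 2375 and 2669 CPM in CK leaves (log2 fold change -1.4, SE 0.26, edgeR adjusted p = 0.0043), and OPR3, a later enzyme of synthesis, fell (log2 fold change -1.3, adjusted p = 0.00204). VSP2, a response marker, had 310.4, 36.6 and 197 CPM in PW leaves, against 350.5, 228 and 314 CPM in CK leaves, with overlapping groups (adjusted p = 0.389), and JAZ10, a repressor, -1.13 (adjusted p = 0.173). JAZ5 and LOX4 were the other down-regulated genes, and neither was a DEG without PW2, CK1 or CK3 (edgeR adjusted p up to 0.1). The count was 2 without PW2, CK1 or CK3. The W-box core (TTGACC or TTGACT), bound by WRKY factors, occurred in 32.8% of promoters of down-regulated DEGs, 25.5% of those of up-regulated DEGs and 27.5% of all tested genes.

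**Figure D4:**
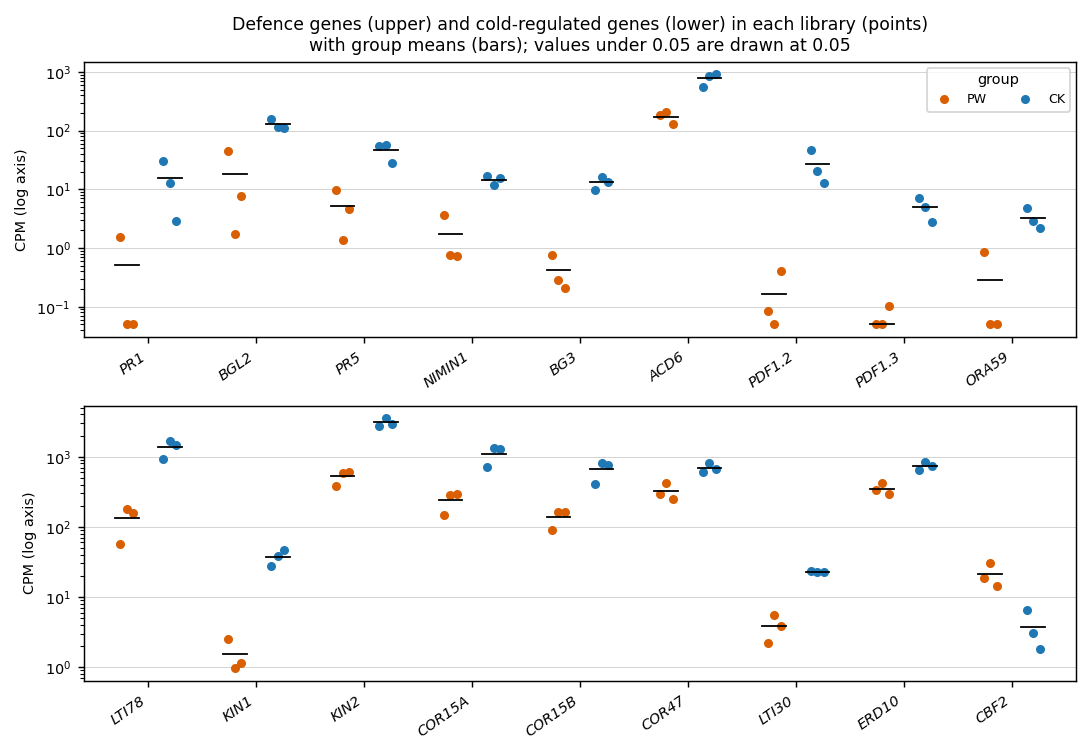
Level of 9 defence genes (upper) and 9 cold-regulated genes (lower) in each PW (orange) and CK (blue) library (CPM, log axis; values under 0.05 are drawn at 0.05), with group means as black bars. PW points lie below all CK points in every gene shown but CBF2, where they lie above.

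Small heat shock proteins lay far below their HS levels in PW leaves. Small heat shock proteins summed to 12.6 to 19.2 CPM over the PW libraries, 4918 to 5962 CPM over the HS libraries and 6.1 to 7.2 CPM over the CK libraries. Of 10 members 4 were up-regulated in PW vs CK and none down-regulated (median 2.09, or 1.32 with genes under the counting floor at their bound). Most members passed the count filter through their HS libraries: with the PW and CK libraries alone 4 were tested, 1 was a DEG and the median was 0.611. HSP18.2, a cytosolic member, was at 8.88, 6.26 and 5.77 CPM in PW leaves, 2555, 3001 and 3642 CPM in HS leaves and 1.57, 1.61 and 1.15 CPM in CK leaves (PW vs CK log2 fold change 2.26, SE 0.27, edgeR adjusted p = 0.000669). HSP21, of the chloroplast, held 25 counts over the PW and 2 over the CK libraries (PW over CK 21.5-fold, 95% counting interval 5.36 to 187, adjusted p = 0.0161), HSP17.4 27 and 3 counts (15.5-fold, 4.76 to 79.7, adjusted p = 0.00616) and ATHSP22.0 14 and 2 counts (12.0-fold, 2.76 to 109, adjusted p = 0.0755). In HS leaves HSP21 was at 1300, 1407 and 457 CPM and HSP17.4 at 446, 461 and 579 CPM. HSP21 was no longer a DEG without PW1 or CK2 (adjusted p up to 0.0561).

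Among cytosolic HSP70, HSP90 and HSP101 genes 3 of 12 were up-regulated and 4 down-regulated (median -0.343). HSP70 (HSP70-4), a heat-induced member, was at 52.5, 50.6 and 44.5 CPM in PW leaves, against 13.8, 13.7 and 15.4 CPM in CK leaves (log2 fold change 1.78, SE 0.17, edgeR adjusted p = 0.000296), and Hop3, a co-chaperone that links HSP70 and HSP90, rose by 1.83 (adjusted p = 0.0013). HSP90.1, the heat-induced HSP90, was at 25.5, 30.6 and 30.5 CPM in PW leaves, against 12.3, 14.5 and 16.3 CPM in CK leaves (log2 fold change 1.01, adjusted p = 0.00191). The constitutive HSP90 genes HSP81-2, HSP81-3 and Hsp81.4, whose coding sequences are nearly identical, fell (log2 fold changes -1.14, -1.1 and -1.33, adjusted p = 0.00539, 0.00261 and 0.000452). HSP101, a disaggregase required for survival of heat, was at 11.3, 8.86 and 13.4 CPM in PW leaves, against 11.7, 11.1 and 14.2 CPM in CK leaves (adjusted p = 0.677), and HSC70-1 had -0.55 (adjusted p = 0.372). The 7 DEGs became 3 without PW2. HSP90.1 was no longer a DEG without PW2, PW3 or CK1 (log2 fold change 0.9). The remaining down-regulated gene was Hsp70-2. It was no longer a DEG without PW2, CK1 or CK3 (log2 fold changes -1.25, -1.44 and -1.5, edgeR adjusted p up to 0.0593). HSP81-2 was no longer a DEG without PW2 (log2 fold change -0.96). HSP81-3 was no longer a DEG without PW2 or CK3 (log2 fold change -0.98).

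Heat shock factors and their targets were mixed, 2 of 18 up-regulated and 3 down-regulated (median 0.129, and -0.0529 without PW1). MBF1C, a heat-induced co-activator, was at 44, 43.2 and 32.5 CPM in PW leaves, 158, 183 and 148 CPM in HS leaves and 16.1, 14.7 and 12.3 CPM in CK leaves (PW vs CK log2 fold change 1.47, SE 0.17, edgeR adjusted p = 0.000629). HSFA3 rose by 1.36 (adjusted p = 0.00238), HSF A4A fell (log2 fold change -1.5, adjusted p = 0.00103) and DREB2C (-2.35, adjusted p = 0.0161). The master factor HSF1 (HSFA1A) was at 7.09, 6.84 and 4.95 CPM in PW leaves, against 5.64, 5.05 and 5.76 CPM in CK leaves, HSFA2 at 5.89, 1.73 and 4.02 CPM in PW leaves, against 4.07, 2.7 and 3.77 CPM in CK leaves, and DREB2A at 11.4, 13.5 and 4.95 CPM in PW leaves, against 21.8, 10.5 and 11.4 CPM in CK leaves, all with overlapping groups. HSFA6B had 1 count in PW and 24 in CK (CK over PW 14.0-fold, 95% counting interval 2.28 to 574, adjusted p = 0.0341). The 5 DEGs became 3 without PW2. DREB2C was no longer a DEG without PW2 or CK2 (adjusted p up to 0.0567). HSFA6B was no longer a DEG without PW2, PW3, CK3 or HS2 (adjusted p up to 0.102), or with the replicate number as a block (adjusted p = 0.0712).

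Chaperones of the endoplasmic reticulum were down-regulated in 3 of 11 cases and up-regulated in none (median -0.542). BIP2 was at 118, 34.1 and 77.8 CPM in PW leaves, against 216, 199.5 and 238 CPM in CK leaves (log2 fold change -1.51, SE 0.36, edgeR adjusted p = 0.0133), its near-identical copy BIP1 fell (log2 fold change -1.32, adjusted p = 0.00914), and BIP3, the stress-induced member, (-2.73, adjusted p = 0.00159). The groups did not overlap in BIP2. BIP1 and BIP2 were also lower in PW than in HS (PW minus HS -1.93 and -1.75, edgeR adjusted p = 0.00207 and 0.00851). Without PW1 the count was 5.

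**Figure D5:**
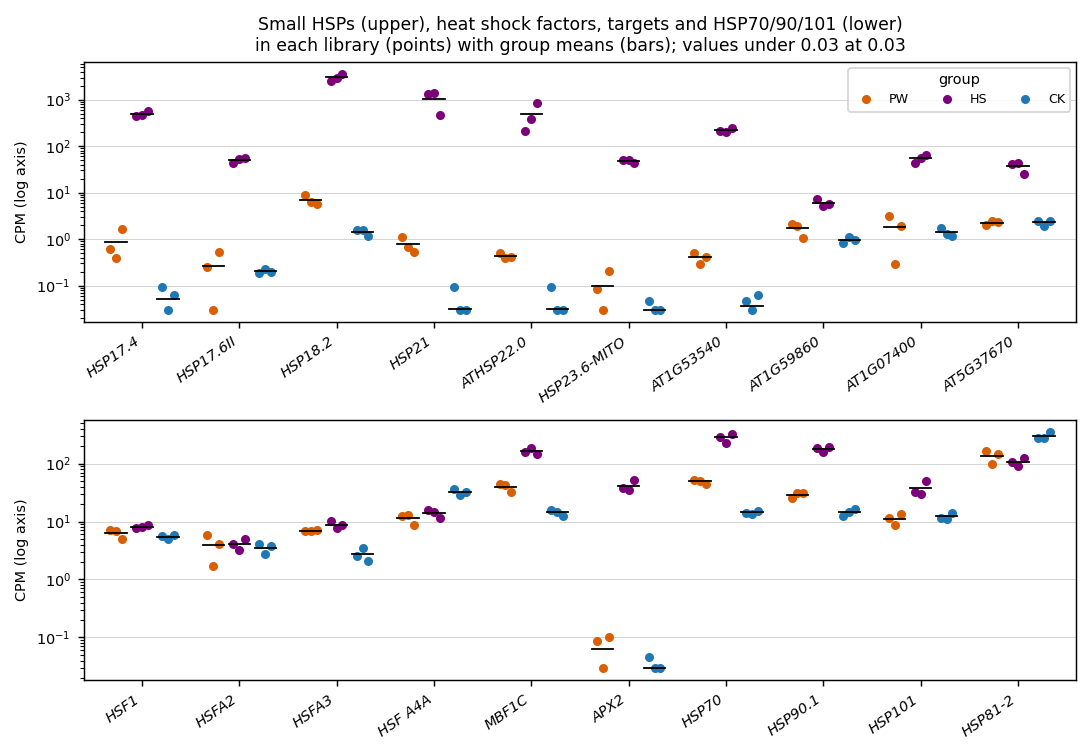
Level of the 10 small heat shock proteins (upper) and of heat shock factors, targets and HSP70, HSP90 and HSP101 genes (lower) in each PW (orange), HS (purple) and CK (blue) library (CPM, log axis; values under 0.03 are drawn at 0.03), with group means as black bars. Small heat shock proteins lie far higher in HS than in PW or CK, and HSP81-2 lies lower in PW and HS than in CK.

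Abscisic acid response genes were down-regulated in 6 and up-regulated in 2 of 16 tested cases (median -0.505). LTI65 (RD29B), a target of the hormone, was at 0.427, 1.73 and 1.44 CPM in PW leaves, 34.4, 53 and 41.6 CPM in HS leaves and 6.85, 5.8 and 6.27 CPM in CK leaves (PW vs CK log2 fold change -2.41, SE 0.37, edgeR adjusted p = 0.00181). HAI1, a phosphatase that the hormone induces, was at 3.5, 2.6 and 5.56 CPM in PW leaves, against 22.9, 15.5 and 15.67 CPM in CK leaves (log2 fold change -2.22, SE 0.31, edgeR adjusted p = 0.00121) and CYP707A1, which breaks the hormone down, fell (log2 fold change -2.18, adjusted p = 0.00177). PW libraries were below CK libraries in each of these genes. RAB18, a dehydrin, fell (log2 fold change -1.53, adjusted p = 0.0197), RD26 (-1.54, adjusted p = 0.0165) and HAI2 (-1.59, adjusted p = 0.0131). PYL4, a receptor of the hormone, rose by 1.94 (adjusted p = 0.00173) and P5CS1, of proline synthesis, by 1.35 (adjusted p = 0.0222), while NCED3, of hormone synthesis, had 0.91 (adjusted p = 0.241). RAB18 was no longer a DEG without PW3, CK1 or CK2 (adjusted p up to 0.0649). RD26 was no longer a DEG without CK3 (adjusted p = 0.0609). P5CS1 was no longer a DEG without PW2, PW3, CK1, CK2 or CK3 (adjusted p up to 0.0823).

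Markers of low carbon supply moved both ways, 5 of 14 up-regulated and 3 down-regulated (median 0.757). DIN10, a raffinose synthase-like gene induced in the dark, was at 63.6, 173 and 134 CPM in PW leaves, against 27, 30.6 and 23.9 CPM in CK leaves (log2 fold change 2.18, SE 0.36, edgeR adjusted p = 0.00237). BT2, a BTB-domain protein repressed by sugar, was at 3.93, 9.44 and 7.62 CPM in PW leaves, against 89.6, 132 and 194 CPM in CK leaves (log2 fold change -4.31, SE 0.52, edgeR adjusted p = 0.000643). The 2 genes, which sugar starvation is known to raise, lay on opposite sides. AKINBETA1, a subunit of the energy sensor kinase SnRK1, rose by 1.67 (adjusted p = 0.0104). SEN1 (DIN1) was at 14.5, 63.5 and 33.3 CPM in PW leaves, against 17.5, 8.32 and 7.55 CPM in CK leaves (log2 fold change 1.73, adjusted p = 0.0313) with overlapping groups, and ASN1, asparagine synthetase, at 20.1, 69.5 and 35 CPM in PW leaves, against 19.6, 18 and 7.16 CPM in CK leaves (adjusted p = 0.369). The dormancy genes AT2G33830 (DRM2) and DYL1 (DRM1) fell (log2 fold changes -1.65 and -1.89). The 8 DEGs became 5 without PW2, PW3, CK2 or CK3, and 5 with the replicate number as a block. SEN1 was no longer a DEG without PW2, PW3, CK2 or CK3 (adjusted p up to 0.12), or with the replicate number as a block (adjusted p = 0.0778). DYL1 was no longer a DEG without PW1, PW2, PW3, CK1, CK2 or CK3 (adjusted p up to 0.12), or with the replicate number as a block (adjusted p = 0.0566).

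Of 13 starch synthesis genes 2 were up-regulated (15.4%, beside 16.4% of all tested genes called in either direction) and none down-regulated (median 0.497), and of 14 genes of starch breakdown none was a DEG (median -0.0779). GBSS1, the clock-controlled synthase of amylose, was at 24.8, 76.7 and 68.8 CPM in PW leaves, against 7.45, 5.45 and 5.37 CPM in CK leaves (log2 fold change 3.21, SE 0.39, edgeR adjusted p = 0.000659) and APL1, a subunit of the first enzyme of synthesis, rose by 1.02 (adjusted p = 0.00694). GPT2, a plastid sugar phosphate carrier, was at 0.427, 0.289 and 0.618 CPM in PW leaves and 1.02, 0.459 and 0.256 CPM in CK leaves, SEX1, which opens starch breakdown, at 342, 1030 and 1022 CPM in PW leaves and 751, 1205 and 1112 CPM in CK leaves, and CT-BMY (BAM3) had -0.8 (adjusted p = 0.163). The synthesis count of 2 was 5 without PW1 and 1 without PW2, PW3 or CK1. APL1 was no longer a DEG without PW2, PW3 or CK1 (log2 fold change 0.87).

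Genes of chlorophyll breakdown and senescence were down-regulated in 6 and up-regulated in 2 of 14 tested cases (median -0.532). SAG21, a stress-induced late embryogenesis-like protein of ageing leaves, was at 4.61, 1.83 and 1.34 CPM in PW leaves, against 80.7, 35.4 and 30 CPM in CK leaves (log2 fold change -4.2, SE 0.51, edgeR adjusted p = 0.000684). NAC6 (ORE1), the NAC factor that drives leaf ageing, was at 1.37, 0.867 and 1.03 CPM in PW leaves, against 13.8, 6.2 and 5.37 CPM in CK leaves (log2 fold change -2.95, SE 0.41, edgeR adjusted p = 0.00111). Both lay lower in every PW library than in any CK library, and both were lower in PW than in HS (PW minus HS -3.37 and -3.17, edgeR adjusted p = 0.00181 and 0.000933). WRKY53 fell (log2 fold change -2.39, adjusted p = 0.0107) and SAG13 (-2.62, adjusted p = 0.0203). SAG29, a sugar carrier, rose by 2.33 (adjusted p = 0.01), though to 1.28, 0.674 and 1.13 CPM in PW leaves, against 0.324, 0.172 and 0.064 CPM in CK leaves, and ACD2, which clears a chlorophyll breakdown product, rose by 1.84 (adjusted p = 0.00483). NYE1, which takes magnesium out of chlorophyll, was at 10.08, 18.1 and 19.1 CPM in PW leaves and 23.3, 17.39 and 13.5 CPM in CK leaves (adjusted p = 0.646). The 8 DEGs became 5 without PW3 or CK1. SAG13 was no longer a DEG without PW2, PW3 or CK1 (adjusted p up to 0.0771).

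In flowering regulators 1 of 15 tested genes rose and 1 fell (median -0.171). This was 13.3% of the list, beside 16.4% of all tested genes, so the list as a whole did not stand out. AGL20 (SOC1), an integrator of flowering signals, was at 94.7, 140.4 and 130 CPM in PW leaves, against 40.2, 46.1 and 38.6 CPM in CK leaves (log2 fold change 1.55, SE 0.22, edgeR adjusted p = 0.00121), and TEM1, a repressor of the flowering signal FT, at 13.8, 15.9 and 18.9 CPM in PW leaves, against 90.7, 62.7 and 54.4 CPM in CK leaves (log2 fold change -2.1, SE 0.41, edgeR adjusted p = 0.0051). FT itself was at 0.427, 1.45 and 1.44 CPM in PW leaves and 0.509, 0.746 and 0.448 CPM in CK leaves, with overlapping groups (adjusted p = 0.271).

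Aliphatic glucosinolates, the sulphur compounds that deter chewing insects, had 6 of 18 genes up-regulated and 1 down-regulated (median 0.489). Their median log2 difference from the CK mean was 0.697, 0.56 and 0.404 in the PW libraries and 0.968, 0.701 and 0.646 in HS. MYB29, a factor of the pathway, was at 136, 71.1 and 63.1 CPM in PW leaves, against 19.6, 26.7 and 20.9 CPM in CK leaves (log2 fold change 2.01, SE 0.34, edgeR adjusted p = 0.00262) and IMS2 (MAM3), an enzyme of side chain elongation, at 2.31, 1.35 and 3.61 CPM in PW leaves, against 22.5, 16.5 and 26.6 CPM in CK leaves (log2 fold change -3.18, SE 0.48, edgeR adjusted p = 0.00165). AT2G31790 (UGT74C1) rose by 1.19 (adjusted p = 0.0017), while MYB28 had 0.3 (adjusted p = 0.221) and MAM1 0.33 (adjusted p = 0.332). The 7 DEGs became 4 without PW1 or PW2 and 3 without CK1 or CK3. In the indole branch and camalexin, MYB34 rose by 1.96 (adjusted p = 0.000606), CYP81F2 fell (log2 fold change -2.49, adjusted p = 0.0195) and PAD3, the last enzyme of camalexin synthesis, (-2.34, adjusted p = 0.0194), 3 of 10 tested genes (median -0.12, and 0.154 without CK3), and 1 of 10 without PW2, CK1, CK2 or CK3. CYP81F2 was no longer a DEG without PW2 or PW3 (adjusted p up to 0.0651), or with the replicate number as a block (adjusted p = 0.0505). PAD3 was no longer a DEG without PW2 or PW3 (adjusted p up to 0.0606).

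Flavonoid and anthocyanin genes, which include the red pigments of stressed leaves, had a median of -1.44 (-1.28 with genes under the counting floor at their bound, and -0.951 without CK1). Yet only 1 of 16 tested rose and 1 fell by the test (12.5%, beside 16.4% of all tested genes). MYBL2 (chr1:26795052-26796532), a repressor of anthocyanin synthesis, was at 96.4, 298 and 199 CPM in PW leaves, against 11.8, 18.25 and 15.73 CPM in CK leaves (log2 fold change 3.7, SE 0.46, edgeR adjusted p = 0.000734), with no overlap of the groups, and was higher in PW than in HS (29.7, 21.4 and 12.6 CPM in HS; PW minus HS 3.22, edgeR adjusted p = 0.00133). FLS1, flavonol synthase, fell (log2 fold change -1.32, adjusted p = 0.0238). DFR, the entry to anthocyanins, was at 7.35, 0 and 0.412 CPM in PW leaves and 11.6, 5.74 and 7.23 CPM in CK leaves, TT4, the first enzyme, at 51.2, 17.43 and 43.9 CPM in PW leaves and 60.3, 30.3 and 41.7 CPM in CK leaves, and PAP1, an activator, at 7.26, 2.12 and 2.37 CPM in PW leaves and 6.34, 4.42 and 4.67 CPM in CK leaves, none of them a DEG. F3H was listed at 0 in all 9 libraries, and whether its RNA was absent or its reads were not counted was not tested. The 2 DEGs became 1 without PW1, PW2, CK1 or CK3, 4 without HS2 and 7 without HS3. FLS1 was no longer a DEG without PW1, PW2, CK1 or CK3 (adjusted p up to 0.096).

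Among mineral nutrition genes, those of sulphur deficiency fell in 4 of 8 tested cases and rose in 1 (median -1.06). LSU1, a small protein induced when sulphur is short, was at 4.44, 2.02 and 2.68 CPM in PW leaves, against 27.4, 24.7 and 34.9 CPM in CK leaves (log2 fold change -3.24, SE 0.31, edgeR adjusted p = 0.000296), LSU2 fell (log2 fold change -2.28, adjusted p = 0.000292), ATSDI1 (-2.21, adjusted p = 0.00967) and APR3, which reduces sulphate, (-1.22, adjusted p = 0.00305), while its isoform APR2 rose by 1.28 (adjusted p = 0.0148). Copper proteins and superoxide dismutases rose in 6 of 13 cases and fell in none (median 0.976, and 0.323 without PW2), with COPT1, a copper importer, at 53.7, 122 and 80.5 CPM in PW leaves, against 23.8, 22.6 and 19.5 CPM in CK leaves (log2 fold change 1.96, SE 0.29, edgeR adjusted p = 0.00163), CSD3 up by 1.64 (adjusted p = 0.000225), CSD2, of the chloroplast, by 1.46 (adjusted p = 0.0245) and DRT112, a plastocyanin, by 1.48 (adjusted p = 0.0062). FSD1, the iron form, was at 280.4, 533 and 232 CPM in PW leaves and 141, 259 and 251 CPM in CK leaves (adjusted p = 0.329). In the iron list FRO3 alone rose (1.35, edgeR adjusted p = 0.00735), 1 of 9 tested (11.1%, beside 16.4% of all tested genes). The iron median was 0.572, and 0.219 without PW3. FER1, ferritin, had 0.58 (edgeR adjusted p = 0.37), and the count was 2 without PW1, HS1 or HS3. APR2 was no longer a DEG without PW2, CK1 or CK2 (adjusted p up to 0.0611). CSD2 was no longer a DEG without PW3, CK1, CK2 or CK3 (adjusted p up to 0.0841).

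For nitrogen, NIA1, a nitrate reductase, was at 43.7, 94.9 and 78.2 CPM in PW leaves, against 38.3, 17.39 and 21.3 CPM in CK leaves (log2 fold change 1.49, SE 0.35, edgeR adjusted p = 0.0117), its isoform NIA2 had 1.07 (adjusted p = 0.0686), and AMT1;1, an ammonium carrier, held 5 counts in PW and 125 in CK (CK over PW 14.5-fold, 95% counting interval 6.07 to 45.6, adjusted p = 0.011), making 1 rise and 1 fall in 10 tested genes (median 0.322). The count of 2 (20% of the list, beside 16.4% of all tested genes) was 5 without PW1, 1 without CK1 or CK2 and 0 without CK3. Aquaporins, the water channels, rose in 5 of 16 cases and fell in 1 (median 0.74). PIP2A, of the plasma membrane, was at 1190, 1734 and 1347 CPM in PW leaves, against 272, 423 and 304 CPM in CK leaves (log2 fold change 2.1, SE 0.29, edgeR adjusted p = 0.00116), and TIP2, of the vacuole, rose by 1.32 (adjusted p = 0.00281) and was higher in PW than in HS (PW minus HS 1.9, edgeR adjusted p = 0.000694). PIP2;5 fell (log2 fold change -1.47, adjusted p = 0.0336). The 6 DEGs became 3 without PW2 or CK1 and 2 without CK3. NIA1 was no longer a DEG without CK3 (adjusted p = 0.053). PIP2;5 was no longer a DEG without PW2, PW3, CK1, CK2 or CK3 (adjusted p up to 0.0994).

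The bZIP factors, in part chosen by the study on these samples and so not independent evidence of their direction, were up-regulated in 4 of 7 tested cases (median 1.68). BZO2H3 (bZIP63, chr5:10796457-10798305), a target of SnRK1 that links energy status to the clock, was at 42.6, 60.7 and 46.6 CPM in PW leaves, against 8.19, 6.83 and 6.39 CPM in CK leaves (log2 fold change 2.8, SE 0.18, edgeR adjusted p = 0.000108) and was higher in PW than in HS (11.9, 10.06 and 9.76 CPM in HS; PW minus HS 2.24, edgeR adjusted p = 0.000122). BZIP34 rose by 2.77 (adjusted p = 0.0182), BZIP9 by 1.68 (adjusted p = 0.0187) and BZIP24 by 1.2 (adjusted p = 0.00615). The S1 group genes bZIP1, bZIP2, GBF6 (bZIP11), bZIP44 and BZIP53 were listed at 0 in all 9 libraries. Whether their RNA was absent or their reads were not counted was not tested, so the list says nothing on them. The 4 DEGs became 1 without PW2 and 2 without CK3. BZIP34 was no longer a DEG without PW2, CK1 or CK3 (adjusted p up to 0.0779). BZIP9 was no longer a DEG without PW2, CK2 or CK3 (adjusted p up to 0.0735). BZIP24 was no longer a DEG without PW2 (log2 fold change 0.96).

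Markers of cell types other than mesophyll were up-regulated in 5 of 35 cases and down-regulated in none, beside 8.82% and 7.6% of all tested genes, and the count was 3 without PW2, CK2 or CK3 and 8 without HS3. TRY, which sets trichome spacing, rose by 3.66 (adjusted p = 0.000225), MYB60, of guard cells, by 1.64 (adjusted p = 0.00291) and APL, of phloem, by 1.45 (adjusted p = 0.00206). Other members of some of these lists went the other way. Log2 fold changes ran from -2.65 to 3.66 for epidermis and trichome (median 0.0779) and -1.79 to 1.64 for guard cells and stomatal lineage (median 0.257). They ran from 0.135 to 1.45 for phloem (median 0.635) and -0.717 to -0.569 for xylem (median -0.648). The 5 mesophyll markers, which are themselves photosynthesis genes, all rose (1.05 to 2.09). Root and meristem markers differed among replicates instead: the 2 root markers tested summed to 94.4, 0.289 and 4.74 CPM in PW1, PW2 and PW3, against 53.1, 58.5 and 37.3 CPM in CK1, CK2 and CK3, and the meristem and flower markers to 34.1, 3.08 and 16.0 CPM in the PW libraries, against 52.8, 15.3 and 23.5 CPM in the CK libraries. No cell cycle gene of 10 was a DEG (median -0.496), with sums of 161, 43.1 and 114 CPM in the PW libraries, against 162, 111 and 147 CPM in the CK libraries. PW2 was lowest in each of these sums, and the part of tissue sampled in the results above was not tested.

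Of the 1671 genes up-regulated in PW vs CK, 459 (27.5%) were also up-regulated in PW vs HS, and of the 1441 down-regulated genes 352 (24.4%) were also down-regulated in PW vs HS, where 6.92% of all tested genes were higher and 7.57% lower. PW libraries serve in both comparisons, so these shares are counts and carry no test. Genes of this kind in the text include AT1G13650, AT1G76240, PRE1, SAUR20, EXPA1, HEMA1, FAD8, MYBL2 and BZO2H3 among rises and COR27, LTI78, KIN1, KIN2, BIP1, SAG21 and NAC6 among falls.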

How the data were processed

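Leaves of 3 PW, 3 HS and 3 CK samples were sequenced on an Illumina platform. The authors removed reads with adapters or of low quality, mapped the rest to the TAIR10 genome with TopHat2 and deposited counts of reads per gene without normalization. The submitters' processing notes also name CASAVA 1.8 and HTSeq 0.6.1. Use of strand and handling of reads with several matches are not given in the sources used here, so overlapping, antisense and near-identical genes are uncertain.

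Groups come from the sample titles. Names, positions and promoters come from RefSeq's annotation of TAIR10.1, to which 32835 of 33602 identifiers were matched. The genes that reached 10 counts in 3 or more libraries were fitted in edgeR 4.0.16 (limma 3.58.1, R 4.3.3) with TMM factors, 1 coefficient per treatment and quasi-likelihood tests, with Benjamini-Hochberg adjustment over 18952 genes. The study's methods used DESeq with the same thresholds (adjusted p under 0.05 and 2-fold), and DESeq2 1.42.0 was run as an alternative. CPM use TMM factors and RPKM the exon length. Positive differences are higher in PW. Groups of few counts were compared by an exact conditional interval at 95%, which covers counting error only, and the floor of 3 counts per library was 0.256 to 0.309 CPM in PW and 0.139 to 0.192 CPM in CK. Figures were drawn with Python 3.11.15 and matplotlib 3.10.9.

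The members, lists, tests and the rule for named genes were chosen with earlier results of these data known. That rule admits the 10 largest rises and falls among DEGs with 100 or more counts in each library of the higher group, the marker members and up to 6 DEGs of largest change per list, DEGs against their list's direction, and the 10 most abundant genes. The text does not name every gene that the rule admits. PW and CK libraries of the same replicate number deviated together from their group means (correlations 0.291, 0.31 and 0.136 across genes), so the numbers were treated as pairs in an alternative with a replicate block. That block covered all 9 libraries, and the HS libraries did not share the pattern. Same-number correlations were -0.497, 0.45 and 0.0847 between PW and HS and -0.319, 0.199 and -0.098 between HS and CK, and PW1 had 0.537 with HS3. Whether the numbers mark a shared batch was not tested. No 2 libraries were duplicates (smallest chi-square per degree of freedom 6.1). The biological coefficient of variation was 0.273.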

Additional observations from a re-analysis of the deposited data

How the results depend on the processing

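Each result was computed again with no filter beyond 1 count, with at least 10 counts in every library, with DESeq2, with library size alone, without organelle genes, with the PW and CK libraries only, with the replicate number as a block, with a GC trend offset, with both, and without each library in turn. The count of 3112 DEGs was 3144, 2577, 3359, 3873, 3084, 3492, 2989, 3192 and 3028 under these settings in that order, and no DEG changed its direction; 2878 of the DEGs were kept with the block and 2283 with library size alone. It was 5884 (3112 higher, 2772 lower) by the adjusted p alone and 843 (472 higher, 371 lower) by glmTreat, where the threshold itself sets the count, and 842 higher and 3031 lower with library size alone. Leaving out 1 library gave 2378 to 3656 DEGs. Beside the calls given with the genes above and the carbon starvation list (5 DEGs), the replicate block ended only the calls of YUC2, KAT1, LOX4, GLDP2, CYP79F2, RD28 and PIP2B among the named genes, and moved the median of the heat shock factor list to 0.0263. Where a value moved or turned, the cause was not tested.

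Library size alone left 4 DEGs in the auxin list, 5 in ER chaperones, 10 in salicylic acid synthesis, 3 in desaturases, 3 in starch breakdown, 5 in the Calvin cycle, 13 in the antenna, 7 in chlorophyll synthesis, 2 in expansins, 2 in aliphatic glucosinolates, 4 in flavonoids, 3 in aquaporins, 2 in bZIPs and 3 in mesophyll markers. It turned HSF1 (-0.208), HSFA2 (-0.24), EDS16 (-0.285), MYB28 (-0.0933), MAM1 (-0.062), CYP79B2 (-0.0735) and KCS6 (-0.145), none of them a DEG. With at least 10 counts in every library, which removes members, DEG counts were 1 for small heat shock proteins, 3 for heat shock factors, 3 for salicylic acid synthesis, 4 for its outputs, 0 for the defensin branch, 1 for starch synthesis, 3 for chlorophyll breakdown, 1 for indole glucosinolates and 2 for iron, and medians 0.794 for small heat shock proteins, -0.719 for salicylic acid synthesis, -1.63 for the defensin branch, -0.414 for flavonoids, 0.212 for iron, 1.16 for bZIPs, 0.291 for other markers and 0.0928 for indole glucosinolates, which turned. With no filter the iron median turned (-0.108), the one for ELIP-like proteins was 0.5 and the one for other markers -0.175. DESeq2 gave 4 flavonoid and 2 iron DEGs and a small heat shock protein median of 2.27. The PW and CK libraries alone gave 1 small heat shock protein, 6 flavonoid and 2 iron DEGs and medians of 0.611 for small heat shock proteins and -5.15 for the defensin branch. The median of HSP70, HSP90 and HSP101 was -0.232 with the GC offset and -0.219 with the block and that offset, which left 5 photorespiration DEGs.

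Leaving out 1 library in turn, DEG counts ran from 4 to 8 for auxin, 3 to 6 for heat shock factors, 3 to 8 for HSP70 and HSP90, 2 to 5 for ER chaperones, 4 to 9 for salicylic acid outputs, 2 to 4 for jasmonate, 2 to 6 for the defensin branch, 5 to 9 for carbon starvation, 1 to 5 for starch synthesis, 7 to 13 for the Calvin cycle, 4 to 10 for photorespiration, 5 to 8 for chlorophyll breakdown, 2 to 5 for expansins, 3 to 7 for aliphatic and 1 to 4 for indole glucosinolates, 1 to 7 for flavonoids, 1 to 2 for iron, 0 to 5 for nitrate, 2 to 8 for aquaporins, 1 to 5 for bZIPs and 3 to 8 for other markers. Medians ran from 0.943 to 1.33 for auxin, 1.54 to 2.85 for small heat shock proteins, -0.0529 to 0.234 for heat shock factors, 3.25 to 3.88 for the morning clock, -1.17 to -0.764 for salicylic acid synthesis, -4.53 to -2.48 for its outputs, -0.502 to -0.228 for jasmonate, -6.4 to -2.44 for the defensin branch, 0.597 to 1.41 for ELIP-like proteins, -0.314 to 0.154 for indole glucosinolates, -1.63 to -0.951 for flavonoids, 0.323 to 1.25 for copper proteins, 0.219 to 0.576 for iron and -0.144 to 0.122 for other markers. The turned medians were -0.0529 for heat shock factors (without PW1) and 0.0115, 0.112, 0.149 and 0.154 for indole glucosinolates (without PW3, CK1, CK2 and CK3). Among genes that were no DEGs, values that turned ran from -0.293 to 0.498 for HSFA2 (below 0 without PW1 or CK2), -0.0144 to 0.279 for EDS16 (below 0 without CK3), -0.134 to 0.876 for FER1 (below 0 without PW1), -0.158 to 0.47 for KCS6 (below 0 without PW2), -0.749 to 0.284 for GPT2 (above 0 without CK1), -0.287 to 0.00312 for HSP101 (above 0 without PW2), -0.382 to 0.0381 for NYE1 (above 0 without PW1 or CK1), -0.584 to 0.00539 for SEX1 (above 0 without PW1), -0.526 to 0.108 for TT4 (above 0 without PW2 or CK1) and -4.06 to 0.419 for PYK10 (above 0 without PW2, PW3 or CK2). Depth limits the low genes: 167 tested genes had at most 3 counts in every PW library and 47 in every CK library.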

Other observations

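Among families taken from product descriptions, beside 8.82% of all tested genes up-regulated and 7.6% down-regulated, B-box factors, zinc finger proteins of light and clock signalling, were changed in 13 of 20 cases (10 up, 3 down, median log2 fold change 1.38). BBX29 rose by 3.91 (edgeR adjusted p = 0.000212), BBX30 by 3.94 (adjusted p = 0.00161) and BBX31 by 4.53 (adjusted p = 0.00679), while BBX8 fell by 2.45 (adjusted p = 0.000228). Of 47 SAUR genes 17 rose and 5 fell (median 0.915), with AT1G29420 up by 3.15 (adjusted p = 0.00185) and AT1G56150 down (-2.98, adjusted p = 0.000218), so that this auxin-induced family held large changes in both directions. Of 51 genes described as photosystem proteins 39 rose and none fell (median 1.3).

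Down-regulation was common among NAC factors (0 up and 12 down of 49, median -0.462), genes described by calmodulin or calcium binding (3 up and 19 down of 99, median -0.352), glycine-rich proteins (2 up and 18 down of 43, median -1.03), lipid transfer proteins (1 up and 12 down of 48, median -1.24), glutathione transferases (2 up and 9 down of 38, median -0.427) and genes described as ribosomal proteins or parts of the ribosome (17 up and 46 down of 292, median -0.405). GRP5, a glycine-rich wall protein, averaged 5.98 CPM in PW and 115 CPM in CK (log2 fold change -4.27, edgeR adjusted p = 8.69e-05). Several of these families have short transcripts, and length moved with the direction of change: of 187 tested genes with under 500 bases of exon 10.7% rose and 24.1% fell (median -0.535), of 2150 with 500 to 1000 bases 9.53% rose and 17.9% fell (median -0.312), and of 7613 with 2000 bases or more 6.23% rose and 5.79% fell (median -0.0768). The part of transcript length in the families' values was not tested.

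A set of 9 tested genes was more than 5-fold higher in CK1, CK2, CK3 and HS2 than in every other library, and all 9 were called lower in PW. They are the 18S rRNA gene AT3G41768 (9.48, 6.16 and 20.4 CPM in PW, 22.2, 1259 and 40.8 CPM in HS, and 386, 302 and 258 CPM in CK), the rRNA gene AT2G01020, AT1G52930, IMP4, AT3G15460, MEE49, FIO1, AT3G13180 and AT5G40530. These genes were chosen after their values were seen. Library preparation is not described in enough detail in the sources used here to say how rRNA was removed, and its part in these values was not tested.

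A further 104 tested genes were more than 5-fold lower in PW2, HS1 and HS2 than in the other 6 libraries, among them the meristem genes STM and KNAT1, the stomatal lineage gene SPCH and the root gene PYK10, and 3 of them were called lower in PW and none higher. They cross the treatments, and the part of leaf or rosette taken for each library was not tested.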
